A study of Mus musculus with 18 samples.

Results

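The genes described here are 10 mouse genes that mark eosinophils, basophils and mast cells: Prg2, Epx and Il5ra of eosinophils, Mcpt8 and Prss34 of basophils, Fcer1a, Ms4a2, Cpa3 and Hdc, which basophils and mast cells share, and the cytokine gene Il4. They were found in the deposited count table by matching Ensembl identifiers to symbols in the GENCODE M21 annotation, and all 10 were present among the 55414 identifiers of the table. Polyadenylated RNA was sequenced from 18 samples of wild type C57BL/6J mice, in a study whose title names the turnover of erythrocytes under particulate air pollution. Macrophages were isolated from the spleens of mice that had 30 days of PM2.5, fine airborne particles (n = 5), or of air (n = 5), and for which the labels also name filtered air after that exposure, without its length. In a separate experiment whole spleens were taken from mice given PM2.5 (n = 4) or filtered air (n = 4) over 30 days. The labels call the PM2.5 groups CAP. They carry the treatment tag of air for macrophage PM2.5 replicate 1, against its title, and log2 fold changes with that library counted as air are given beside those with it as PM2.5. The labels used here give neither the age and sex of the mice nor the way the macrophages were isolated, and they call the replicates biological.

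Eosinophils, basophils and mast cells are granulocytes of type 2 immunity, the response to worms and allergens. Eosinophils carry granules of toxic proteins and depend on the cytokine IL-5, while basophils and mast cells hold histamine and proteases and release them when IgE bound to the high affinity receptor FceRI is crosslinked. The granule protein genes are transcribed mainly while the cells mature, in bone marrow and at sites of blood formation outside it, and the spleen is such a site in the mouse.

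The 18 libraries held between 16493694 and 33844807 counts. Levels are given as CPM, a count divided by the library total after TMM scaling over all 18 libraries. The 10 red pulp macrophage markers checked summed to between 17200 and 24200 CPM in macrophage PM2.5 and between 20300 and 28900 CPM in macrophage air libraries, against 551 to 852 CPM in spleen PM2.5 and 310 to 607 CPM in spleen air libraries. Markers of other cells were also present in the macrophage preparations, where the 8 B cell markers summed to at least 2260 CPM in every library. Some spleen libraries stood apart: the 6 liver markers summed to 44.1 and 87.4 CPM in air replicates 3 and 4 and to at most 7.56 CPM in the other 6 spleens, and the 12 erythroid genes summed to 15300 and 9230 CPM in PM2.5 replicates 2 and 4 and to at most 4060 CPM in the other 6. The 8 mesothelium markers, of the lining on the outside of the spleen, summed to 50.3, 40.9, 123.0 and 237.0 CPM in spleen PM2.5 replicates 1 to 4, against 3.18 to 5.35 CPM in spleen air libraries, with 7 of 7 tested higher, a median of log2 fold changes of 5.0 and none passing in edgeR. Genes with exactly 1 count numbered 2408 to 2616 in macrophage PM2.5 and 2210 to 2514 in macrophage air libraries, against 731 to 1377 in spleen PM2.5 and 498 to 1514 in spleen air libraries. The part of this difference in the values of rare transcripts in spleen was not tested. In these bulk samples, fewer cells of a type and less RNA per cell cannot be told apart.

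The granule protein gene Prg2 was the most abundant of the 10 per length of exon in 3 of the 4 groups, and the IL-5 receptor gene Il5ra was in spleen air. Prg2 averaged 51.8 CPM per kb in macrophage PM2.5 and 22.2 CPM per kb in macrophage air libraries, and 6.06 CPM per kb in spleen PM2.5 and 3.06 CPM per kb in spleen air libraries. Il5ra was more even, at 3.13 CPM per kb in macrophage PM2.5 and 3.10 CPM per kb in macrophage air libraries, and 3.67 CPM per kb in spleen PM2.5 and 5.30 CPM per kb in spleen air libraries. In macrophage PM2.5 libraries Epx followed at 3.25 CPM per kb, close to Il5ra, and the other 7 lay between 0.606 CPM per kb (Ms4a2) and 1.36 CPM per kb (Cpa3), with neighbours in that order closer than their spread over libraries. All 10 were detected in both macrophage groups. In spleen, Epx had no count in any PM2.5 library, and Mcpt8 and Ms4a2 had none in any air library. A count of 0 allows up to 3 counts, or between 0.125 and 0.144 CPM in a spleen PM2.5 library and between 0.142 and 0.180 CPM in a spleen air library, for counting error only.

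**Figure D1:**
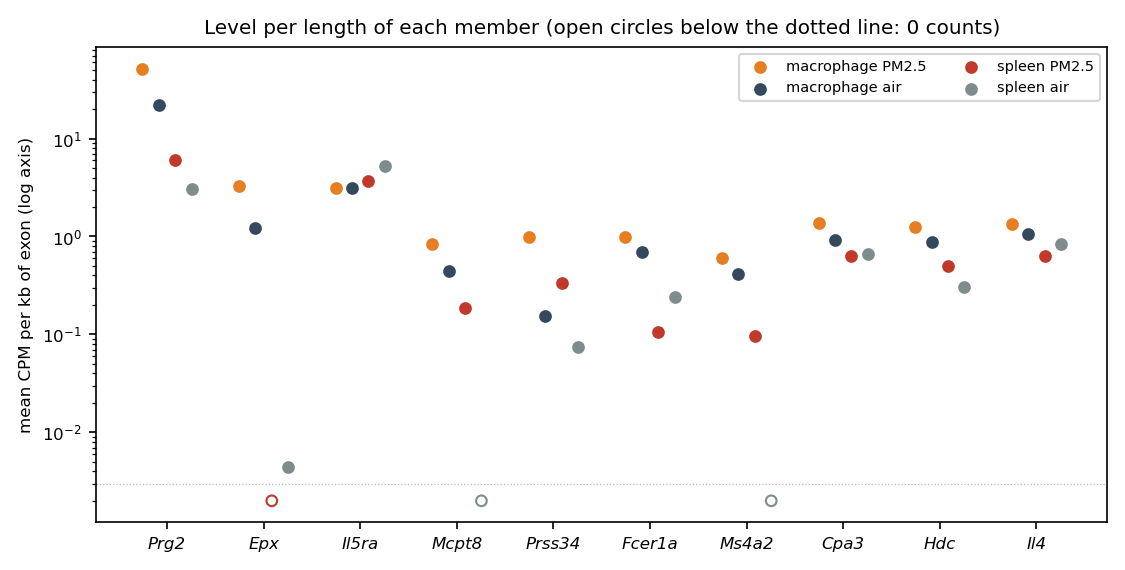
Mean level of each of the 10 genes in CPM per kb of exon on a log axis, with 1 filled circle per group (macrophage PM2.5, macrophage air, spleen PM2.5, spleen air) and open circles for groups with no count. Prg2 is highest in macrophage PM2.5 at 51.8 CPM per kb, and Epx is at 0 or 0.00439 CPM per kb in the spleen groups.

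Both eosinophil and mast cell genes are known targets of GATA factors, so the sequence before the gene start was read from RefSeq (GRCm38.p6, 250 bases before to 50 bases after the start) for 9 of the 10 genes. The word AGATAA was searched on both strands, with AGATAG as the second form, TGATAA as the third and TGATAG as the last. At least 1 word stood in 8 of the 10 windows of these 9 genes (Il4 has a window for each of its 2 starts), against 29.8% of all 32851 windows. Of Epx and Mcpt8, the windows held none of these words. Shown are the windows of the eosinophil genes Epx and Il5ra, whose values follow different patterns over the libraries, and of Cpa3 and Prss34, which hold the word near the start. The word is in capitals, and it begins 74 bases before the start in Il5ra, 46 bases before it in Cpa3 and 31 bases before it in Prss34. A match describes the letters only and is not a binding site.
Epx (chr11:87875487-87875786, minus strand): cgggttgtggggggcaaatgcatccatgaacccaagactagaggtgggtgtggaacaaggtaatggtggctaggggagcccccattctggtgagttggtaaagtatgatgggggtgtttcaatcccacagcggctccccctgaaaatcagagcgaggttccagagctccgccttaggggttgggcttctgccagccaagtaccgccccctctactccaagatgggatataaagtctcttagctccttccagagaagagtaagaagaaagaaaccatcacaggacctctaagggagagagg
Il5ra (chr6:106748988-106749287, minus strand): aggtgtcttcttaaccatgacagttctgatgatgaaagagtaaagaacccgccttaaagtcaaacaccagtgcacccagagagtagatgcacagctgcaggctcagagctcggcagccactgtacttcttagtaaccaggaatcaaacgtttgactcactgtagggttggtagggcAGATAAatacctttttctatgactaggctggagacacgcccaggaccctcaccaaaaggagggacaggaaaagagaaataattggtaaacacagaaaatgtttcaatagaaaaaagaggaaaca
Cpa3 (chr3:20242132-20242431, minus strand): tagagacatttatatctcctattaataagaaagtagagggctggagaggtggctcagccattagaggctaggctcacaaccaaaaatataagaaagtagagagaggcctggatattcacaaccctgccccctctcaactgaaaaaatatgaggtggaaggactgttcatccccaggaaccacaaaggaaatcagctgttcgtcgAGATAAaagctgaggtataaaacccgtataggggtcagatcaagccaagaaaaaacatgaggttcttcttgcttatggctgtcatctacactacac
Prss34 (chr17:25298144-25298443, plus strand): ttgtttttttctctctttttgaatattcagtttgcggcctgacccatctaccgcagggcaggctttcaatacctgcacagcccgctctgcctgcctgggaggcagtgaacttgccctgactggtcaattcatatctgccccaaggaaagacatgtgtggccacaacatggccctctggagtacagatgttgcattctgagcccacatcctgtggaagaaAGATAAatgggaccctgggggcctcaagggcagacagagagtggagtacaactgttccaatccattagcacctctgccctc

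In the macrophage preparations, the eosinophil granule genes Prg2 and Epx were higher in every PM2.5 library than in any air library, as were 1.38% of all genes tested. They were 2.34-fold and 2.75-fold higher in the fit, while Il5ra did not follow them. Neither passed edgeR's adjusted threshold of 0.05, which no gene passed in this comparison, and both passed it in DESeq2 (1.11% of genes). The 6 tested basophil and mast cell genes, Il4 included, were on the higher side in the fit, overlapped between the groups and passed neither test. With PM2.5 replicate 1 counted as air, as its treatment tag has it, the groups overlapped for Prg2. DESeq2 then called neither Prg2 (adjusted p = 0.660) nor Epx (adjusted p = 0.0529).

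Prg2 encodes major basic protein, the crystal core of the eosinophil granule (ENSMUSG00000027073, GRCm38 chr2:84980461-84983632, plus strand). It had 57.2, 29.4, 61.4, 35.0 and 34.1 CPM in macrophage PM2.5 replicates 1 to 5, against 16.3, 26.5, 13.3, 19.9 and 17.4 CPM in macrophage air replicates 1 to 5. The lowest PM2.5 library was above the highest air library, and PM2.5 replicates 1 and 3 stood well above the other 3. The means were 43.4 ± 14.7 CPM in PM2.5 and 18.6 ± 4.97 CPM in air (SD, n = 5 each), with a log2 fold change of 1.23 (SE 0.237; edgeR adjusted p = 0.258, rank 13 of 15696 genes by p). DESeq2 gave an adjusted p of 0.000569, and limma-voom called no gene. With replicate 1 counted as air, as its treatment tag has it, the log2 fold change was 0.66 and the adjusted p 0.667 in edgeR and 0.660 in DESeq2.

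Epx encodes eosinophil peroxidase, an enzyme of the granule matrix (ENSMUSG00000052234, GRCm38 chr11:87864000-87875536, minus strand). It had 5.74, 6.48, 17.6, 7.55 and 7.13 CPM in macrophage PM2.5 replicates 1 to 5, against 3.47, 4.89, 1.47, 3.19 and 3.49 CPM in macrophage air replicates 1 to 5. The groups did not overlap, and PM2.5 replicate 3 stood far above every other library. The means were 8.90 ± 4.92 CPM in PM2.5 and 3.30 ± 1.22 CPM in air (SD, n = 5 each), with a log2 fold change of 1.46 (SE 0.357; edgeR adjusted p = 0.258). DESeq2 gave an adjusted p of 0.0095. Without PM2.5 replicate 3 the log2 fold change was 1.05 in edgeR and 1.04 in DESeq2 (adjusted p = 0.032), and with replicate 1 counted as air it was 1.39 in DESeq2 (adjusted p = 0.0529).

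Il5ra encodes the chain of the IL-5 receptor that binds the cytokine, and is also transcribed in B cells (ENSMUSG00000005364, GRCm38 chr6:106710357-106749037, minus strand). It had 8.34, 9.20, 9.91, 16.3 and 12.2 CPM in macrophage PM2.5 replicates 1 to 5, against 12.6, 9.91, 10.5, 13.8 and 8.66 CPM in macrophage air replicates 1 to 5. The groups lay over each other, and the libraries highest in Epx and Prg2 were not highest in Il5ra. The log2 fold change was 0.0159 (SE 0.191; edgeR adjusted p = 0.984), and its sign turned in limma-voom, at -0.0233.

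Groups that did not overlap with PM2.5 higher made up 1.38% of the 15696 genes tested, and 2 of the 9 genes tested here, Prg2 and Epx, were among them. Calls made up 0.00% of the genes in edgeR and in limma-voom, and 1.11% in DESeq2. An unadjusted edgeR p under 0.05 was found for 10.9% of all genes, or 1704 genes, and for 2 of the 9. All 9 had a log2 fold change above 0, as did 51.4% of all genes, and their median was 0.551, beside 0.00621 over all genes. With PM2.5 replicate 1 counted as air, edgeR called none of the 10 and the log2 fold changes were 0.15 for Il5ra, 1.06 for Mcpt8, 0.58 for Fcer1a, 0.85 for Ms4a2, 0.48 for Cpa3, 0.49 for Hdc and 0.32 for Il4.

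Among other genes known from eosinophils, the ribonuclease genes Ear1 and Ear6 were on the higher side. Their relative Ear2 and the surface protein genes Siglecf and Ccr3 were not. These genes were named after their values were seen. Ear1 and Ear6, ribonuclease genes of the eosinophil-associated family, had log2 fold changes of 0.85 (SE 0.337; edgeR adjusted p = 0.396) and 1.0 (SE 0.397; adjusted p = 0.398). Ear1 averaged 4.50 ± 1.81 CPM in PM2.5 and 2.55 ± 1.25 CPM in air, and Ear6 averaged 3.91 ± 1.52 CPM in PM2.5 and 1.99 ± 1.17 CPM in air (SD, n = 5 each), with PM2.5 replicate 3 highest for both. For Ear1 and Ear6 the groups overlapped. Genes of the family are close copies, so reads may have been split between them. Siglecf, a surface lectin of eosinophils, averaged 3.28 ± 0.979 CPM in PM2.5 and 4.16 ± 1.27 CPM in air, with a log2 fold change of -0.34 (adjusted p = 0.643). Ccr3, the eotaxin receptor, averaged 331.0 ± 38.6 CPM in PM2.5 and 368.0 ± 54.1 CPM in air (log2 fold change -0.15, adjusted p = 0.652). Ear2 was near 0 in log2 fold change, at -0.0589, and Prg3, the paralog of Prg2, had 0.23. Over the list of 14 further eosinophil genes, 13 were tested, 7 were higher and 6 lower, none passed in edgeR, and the median log2 fold change was 0.0504. With PM2.5 replicate 1 counted as air, 6 were higher and 7 lower with a median of -0.0602, and the log2 fold changes were 0.83 for Ear1, 0.88 for Ear6, -0.0602 for Siglecf, -0.23 for Ccr3 and -0.31 for Ear2. The 3 tested genes of that list with the smallest p were Adgre1 (-0.49, adjusted p = 0.299), Csf2rb2 (-0.40, 0.363) and Csf2rb (-0.24, 0.381), the F4/80 antigen shared with macrophages and the shared receptor chains of IL-3, IL-5 and GM-CSF, each lower in PM2.5 without passing. From spleen air to macrophage air, the log2 fold change was 9.8 for Ccr3 and 5.07 for Ear2, beside 6.85 for Adgre1 and 7.45 for Epx. Which cells of the preparations carried Ccr3 and Ear2 was not tested, so their values need not be those of eosinophils.

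**Figure D2:**
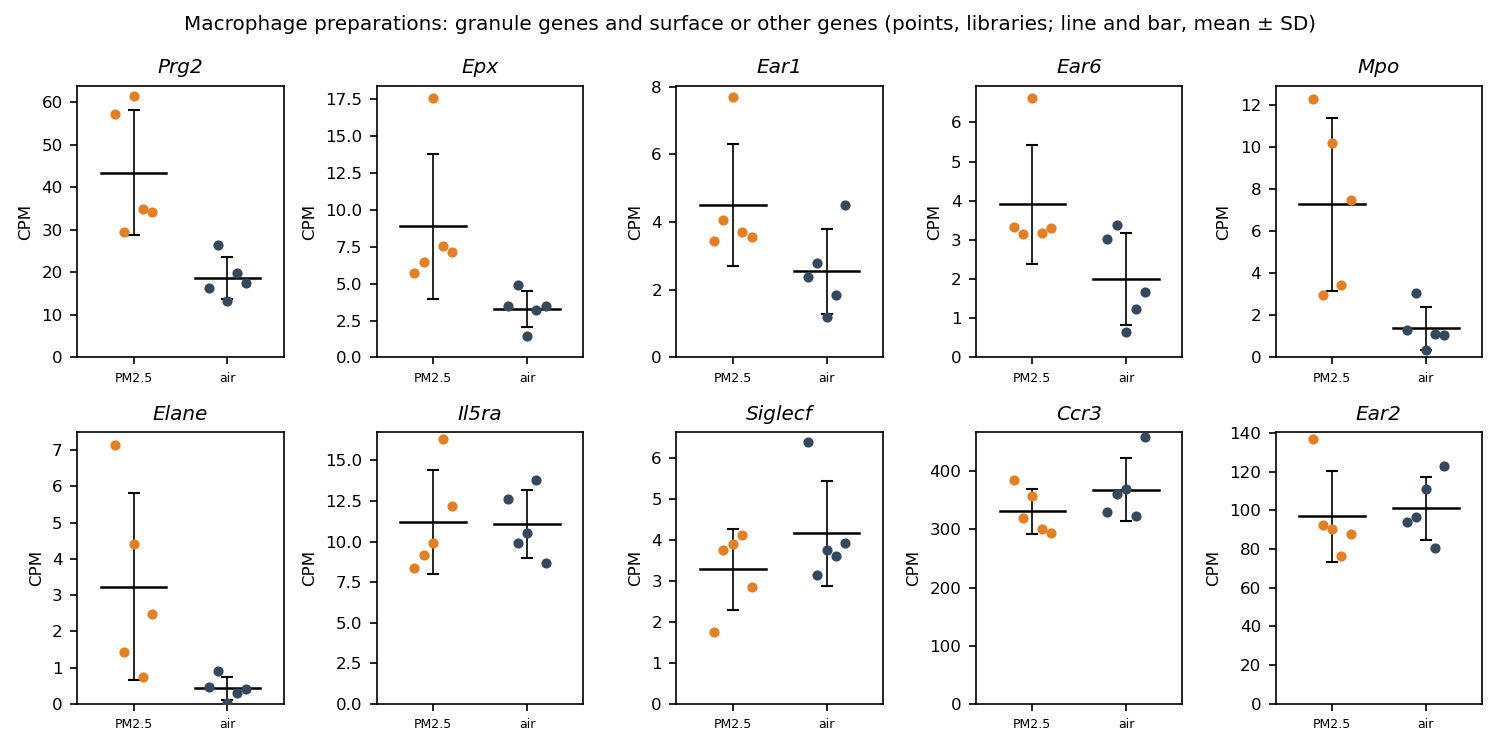
CPM of 10 genes in the macrophage libraries, PM2.5 left of air, with a point for each library, a line for the mean and a bar for the SD. Prg2 and Epx do not overlap between the groups, and Mpo averages 7.29 CPM in PM2.5 and 1.38 CPM in air. Ear1, Ear6, Mpo, Elane, Il5ra, Siglecf, Ccr3 and Ear2 overlap.

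Genes of the azurophil granules of granulocyte precursors were on the higher side of the fit in the same comparison. Mpo, the myeloperoxidase gene, had 12.3, 2.95, 10.2, 3.43 and 7.48 CPM in macrophage PM2.5 replicates 1 to 5, against 1.28, 3.08, 0.339, 1.13 and 1.08 CPM in macrophage air replicates 1 to 5. Replicates 1 and 3 of the PM2.5 group were the 2 highest for Mpo, for Prg2 and for the neutrophil elastase gene Elane. Epx did not share this order, since replicate 1 was its lowest PM2.5 library, at 5.74 CPM. The groups overlapped for Mpo and for Elane, which had 0.74 CPM in PM2.5 replicate 4 and 0.906 CPM in air replicate 2. In edgeR the log2 fold changes of Mpo, Elane and Prtn3, the proteinase 3 gene, were 2.44, 2.96 and 2.26, each with an adjusted p of 0.258. DESeq2 called all 3, with adjusted p-values of 0.0137, 0.0033 and 0.000228, and with replicate 1 counted as air the log2 fold changes were 0.90, 0.54 and 0.45 in DESeq2. None of the 3 was called then, with adjusted p-values of 0.792 for Mpo and 0.907 for Elane in DESeq2, which gave none for Prtn3, and 0.857 for Prtn3 in edgeR. Without PM2.5 replicate 3 the DESeq2 adjusted p of Mpo was 0.0673. The 8 genes of the promyelocyte list, from which these come, summed to between 106 and 184 CPM in PM2.5 and between 113 and 141 CPM in air libraries, with 4 of 5 tested higher, 1 lower and a median of 2.26, or 0.557 with 5 of 6 higher when replicate 1 was counted as air. The 14 neutrophil markers summed to between 148 and 379 CPM in PM2.5 and between 165 and 259 CPM in air libraries, with 10 of 12 tested higher, a median of log2 fold changes of 1.06 and none at 0 in every library. The 9 plasma cell markers summed to between 1400 and 4550 CPM in PM2.5 and between 770 and 2310 CPM in air libraries, with 9 of 9 higher and a median of 1.01. Counting replicate 1 as air gave 8 of 12 neutrophil markers higher with a median of 0.399, and 9 of 9 plasma cell markers higher with a median of 0.369. None of these markers passed in edgeR, and the part of these cells in the values of Prg2 and Epx was not tested.

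The basophil protease genes were rare in the macrophage preparations and higher in the PM2.5 group mean. Prss34 encodes mouse mast cell protease 11, which in the mouse is a basophil enzyme (ENSMUSG00000056399, GRCm38 chr17:25298394-25300165, plus strand). It had 0.605, 0.345, 0.975, 2.64 and 1.48 CPM in macrophage PM2.5 replicates 1 to 5, from 9 to 50 counts, against 0.0399, 0.362, 0.113, 0.309 and 0.120 CPM in macrophage air replicates 1 to 5, from 1 to 6 counts. Of the PM2.5 libraries, 4 were above every air library and replicate 2 lay within the air range. Prss34 fell under the filter on low counts, and an exact two-sided permutation test on log2(CPM + 1) gave a difference of 0.812, PM2.5 minus air, with p = 0.0159, where the smallest p possible with 5 against 5 libraries is 0.00794. Over the 6 tests of this kind the adjusted p was 0.0954. With PM2.5 replicate 1 counted as air the difference was 0.831 and the exact permutation p 0.0286, before adjustment.

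Mcpt8 encodes mast cell protease 8, a marker of mouse basophils (ENSMUSG00000022157, GRCm38 chr14:56082166-56085273, minus strand). It had 0.363, 0.422, 0.520, 1.53 and 1.37 CPM in macrophage PM2.5 replicates 1 to 5, against 0.0797, 0.362, 0.866, 0.926 and 0 CPM in macrophage air replicates 1 to 5. The groups overlapped, with replicates 4 and 5 of PM2.5 highest and replicates 3 and 4 of air above the other PM2.5 libraries. The log2 fold change was 0.86 (SE 0.686; edgeR adjusted p = 0.669).

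The IgE receptor genes followed Mcpt8 over the air libraries. Ms4a2, the beta chain of FceRI (ENSMUSG00000024680, GRCm38 chr19:11615523-11623719, minus strand), had 0.605, 1.23, 1.95, 2.17 and 2.58 CPM in macrophage PM2.5 replicates 1 to 5, against 0.438, 0.725, 2.03, 1.95 and 0.662 CPM in macrophage air replicates 1 to 5. Fcer1a, the chain that binds IgE (ENSMUSG00000005339, GRCm38 chr1:173221284-173227214, minus strand), had 0.665, 1.07, 0.715, 0.951 and 1.48 CPM in macrophage PM2.5 replicates 1 to 5, against 0.279, 0.362, 1.36, 1.08 and 0.361 CPM in macrophage air replicates 1 to 5. Air replicates 3 and 4 were high for both and for Mcpt8, and the other 3 air libraries were low. Their log2 fold changes were 0.55 (SE 0.461; edgeR adjusted p = 0.688) for Ms4a2 and 0.48 (SE 0.436; adjusted p = 0.707) for Fcer1a.

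Hdc, histidine decarboxylase, makes histamine (ENSMUSG00000027360, GRCm38 chr2:126593667-126619299, minus strand). It had 7.07, 5.79, 11.2, 8.19 and 7.70 CPM in macrophage PM2.5 replicates 1 to 5, against 3.59, 3.93, 9.15, 6.99 and 4.15 CPM in macrophage air replicates 1 to 5. As for the IgE receptor genes, air replicates 3 and 4 were the high ones, and only PM2.5 replicate 3 was above all air libraries. The log2 fold change was 0.52 (SE 0.272; edgeR adjusted p = 0.526). In air replicate 3, where Hdc was highest of its group and Ms4a2 and Fcer1a were too, Epx and Prg2 were at the lowest level of the 10 macrophage libraries.

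Cpa3, the carboxypeptidase A3 gene of mast cells and basophils (ENSMUSG00000001865, GRCm38 chr3:20215620-20242181, minus strand), had 1.93, 1.27, 1.62, 3.12 and 2.39 CPM in macrophage PM2.5 replicates 1 to 5, against 0.957, 2.05, 1.66, 1.54 and 0.782 CPM in macrophage air replicates 1 to 5. Il4, the cytokine that basophils and T cells release (ENSMUSG00000000869, GRCm38 chr11:53602982-53618669, minus strand), had 1.51, 1.69, 1.88, 1.32 and 1.78 CPM in macrophage PM2.5 replicates 1 to 5, against 1.40, 1.45, 1.09, 1.03 and 1.56 CPM in macrophage air replicates 1 to 5. The groups overlapped for both, and neither showed the pair of high air libraries seen for the IgE receptor genes. The log2 fold changes were 0.56 (SE 0.305; edgeR adjusted p = 0.539) for Cpa3 and 0.35 (SE 0.184; adjusted p = 0.528) for Il4.

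Of 26 further genes known from basophils and mast cells, 19 were tested in the macrophage comparison, 13 on the higher and 6 on the lower side. Their median was 0.277 in log2 units, and none passed in edgeR. With PM2.5 replicate 1 counted as air, 10 were higher and 9 lower, with a median of 0.00458. The 3 with the smallest p were Il1rl1, the IL-33 receptor gene (0.72, adjusted p = 0.312), the connective tissue mast cell protease gene Mcpt4 (1.28, adjusted p = 0.382) and Kit, the stem cell factor receptor gene of mast cells and progenitors (-0.46, adjusted p = 0.472). Mcpt4 had 6.29 CPM in PM2.5 replicate 1 and at most 2.73 CPM in any other macrophage library, and with that library counted as air its log2 fold change was -0.16. Of 27 genes of type 2 cytokines, their receptors and targets, 18 were tested, with 8 higher and 10 lower and a median of -0.0236. None of these passed in edgeR, and the gene with the smallest p was Chil3, which encodes the chitinase-like protein Ym1 (1.07, adjusted p = 0.280; DESeq2 adjusted p = 0.0179). PM2.5 replicate 1 was its highest library, at 91.8 CPM, and with that library counted as air its log2 fold change was 0.31 (adjusted p = 0.852 in edgeR and 0.872 in DESeq2), and 7 of the 18 were higher. The cytokine genes Il3, Il9 and Il25 had no count in any macrophage library.

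**Figure D3:**
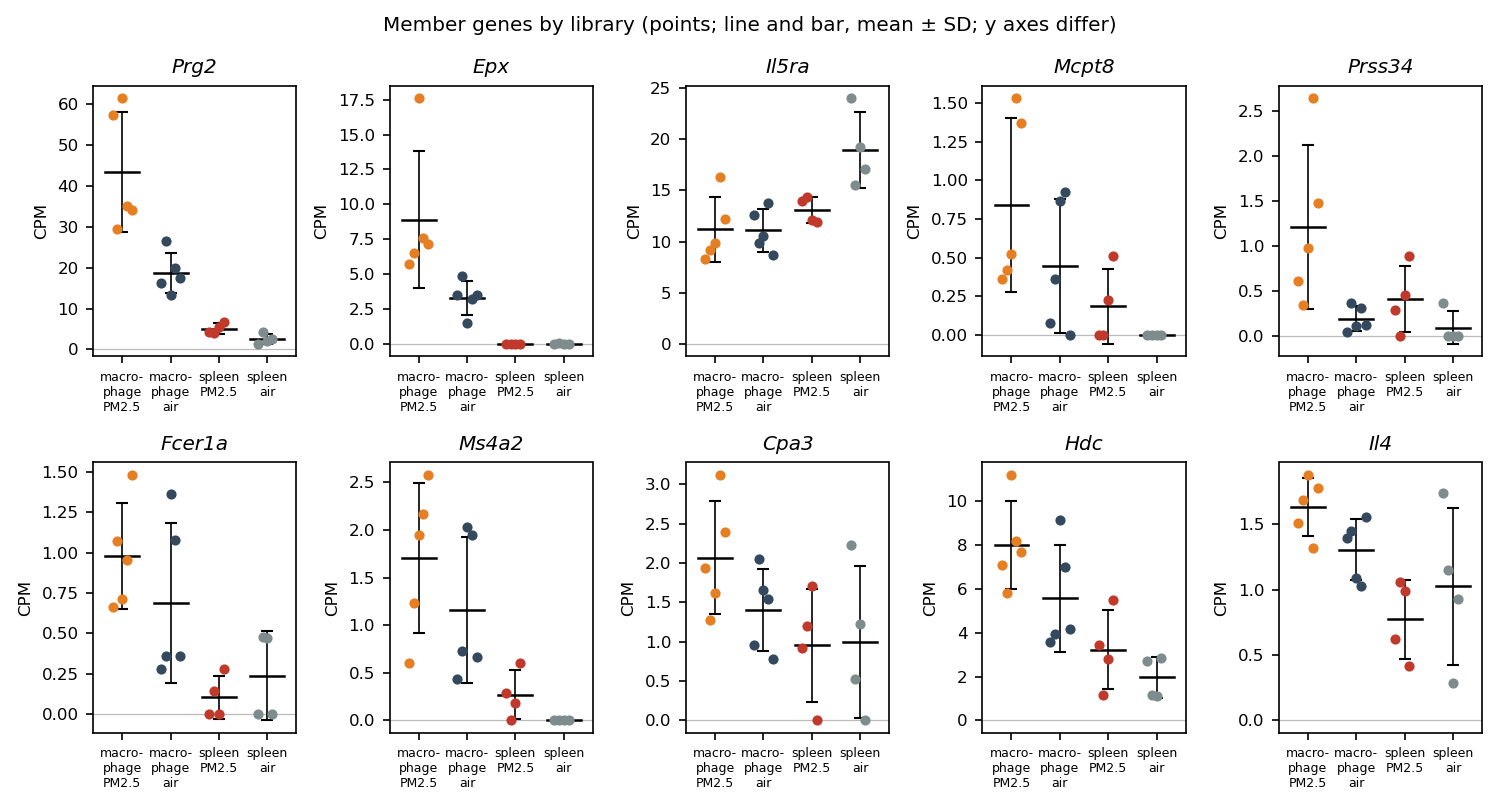
CPM of each of the 10 genes in every library, with groups from left to right macrophage PM2.5, macrophage air, spleen PM2.5 and spleen air, and a line and bar for mean ± SD. The y axes differ between genes. Prg2 and Epx separate the macrophage groups, and Il5ra separates the spleen groups in the opposite direction.

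In whole spleen, the 5 genes with enough counts to be tested were Prg2, Il5ra, Cpa3, Hdc and Il4. Prg2 and Hdc were higher in PM2.5 and the other 3 lower, and none passed in edgeR, DESeq2 or limma-voom. Of the 16551 genes tested, edgeR called 0.0121%, DESeq2 5.01% and limma-voom 0.00604%, and 16.7% had an unadjusted p under 0.05, among them 2 of these 5. The median of log2 fold changes of the 5 was -0.041, beside 0.0172 over all genes.

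Il5ra had 14.0, 14.4, 12.1 and 11.9 CPM in spleen PM2.5 replicates 1 to 4, against 24.0, 15.5, 19.2 and 17.1 CPM in spleen air replicates 1 to 4. All 4 PM2.5 libraries were below every air library, as they were for 4.66% of all genes. The means were 13.1 ± 1.29 CPM in PM2.5 and 18.9 ± 3.68 CPM in air (SD, n = 4 each), with a log2 fold change of -0.53 (SE 0.18; edgeR adjusted p = 0.181). It was -0.58 without both air libraries with liver transcripts and -0.52 without both PM2.5 libraries richest in erythroid transcripts. Without PM2.5 replicates 3 and 4, the richest in mesothelium markers and the lowest for Il5ra, it was -0.38. The 8 B cell markers summed to between 4000 and 5600 CPM in spleen PM2.5 and between 5720 and 6600 CPM in spleen air libraries, with 8 of 8 lower, a median of log2 fold changes of -0.195 and none passing in edgeR. Their part in the value of Il5ra was not tested.

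Prg2 had 4.17, 3.94, 5.53 and 6.67 CPM in spleen PM2.5 replicates 1 to 4, against 1.44, 4.28, 2.08 and 2.47 CPM in spleen air replicates 1 to 4. Air replicate 2 was the only air library within the PM2.5 range. The means were 5.08 ± 1.27 CPM in PM2.5 and 2.57 ± 1.21 CPM in air (SD, n = 4 each), with a log2 fold change of 0.97 (SE 0.361; edgeR adjusted p = 0.216), which was 0.82 without the air libraries with liver transcripts and 0.92 without the PM2.5 libraries richest in erythroid transcripts. PM2.5 replicates 3 and 4 were the highest for Prg2 and for the mesothelium markers, and without both the log2 fold change was 0.67. They were also the highest spleens for the summed neutrophil markers, at 140.0 and 223.0 CPM, and for the promyelocyte list, at 50.4 and 84.2 CPM. In spleen, 9 of 10 tested neutrophil markers were higher, with a median of log2 fold changes of 1.07. Of the promyelocyte list 3 of 4 were higher, with a median of 1.77, and none of either list passed in edgeR. In the macrophage preparations there were 22.0 counts of Epx per 100 of Prg2 in PM2.5 and 17.5 in air. In spleen, Epx did not accompany Prg2: for 448 counts of Prg2 there were 0 of Epx in PM2.5, and for 202 counts of Prg2 there was 1 of Epx in air. Mpo averaged 6.84 ± 8.57 CPM in spleen PM2.5 and 0.419 ± 0.568 CPM in spleen air (SD, n = 4 each; log2 fold change 4.04, edgeR adjusted p = 0.141). PM2.5 replicate 4 was at 19.6 CPM and the other 3 PM2.5 spleens between 1.13 and 4.23 CPM, and the log2 fold change was 2.65 without that replicate and up to 5.32 without air replicate 1. The part of these markers in the value of Prg2 was not tested.

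Hdc had 3.42, 1.15, 2.79 and 5.51 CPM in spleen PM2.5 replicates 1 to 4, against 2.71, 1.15, 1.13 and 2.86 CPM in spleen air replicates 1 to 4, with a log2 fold change of 0.71 (SE 0.503; edgeR adjusted p = 0.517). The groups overlapped. Cpa3 had 22, 25, 38 and 0 counts in spleen PM2.5 replicates 1 to 4, against 37, 11, 26 and 0 counts in spleen air replicates 1 to 4, so that replicate 4 of both groups had no count where the other 6 libraries had at least 11. Its log2 fold change was -0.041 (SE 1.09; edgeR adjusted p = 0.990), and the sign changed without air replicate 1, at 0.69, and without PM2.5 replicates 3 and 4, at 0.15. For Hdc the value without these 2 was 0.26. Il4 had 15, 22, 22 and 9 counts in PM2.5 replicates 1 to 4, against 29, 24, 6 and 17 counts in air replicates 1 to 4, with a log2 fold change of -0.40 (SE 0.606; edgeR adjusted p = 0.780).

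The other 5 genes were too rare in spleen for the fit. Mcpt8 had 16 counts over the PM2.5 libraries, in replicates 3 and 4 only, and 0 over the air libraries. Its counts summed over the group and scaled were at least 4.63-fold higher, with 3 counts over the air group as the limit. Ms4a2 had 7, 0, 4 and 13 counts in PM2.5 replicates 1 to 4 and 0 in all air libraries, which makes it at least 6.95-fold higher on the same terms. These bounds take the PM2.5 counts as they stand and cover only the counting error of the 0 in air. They leave out the spread between libraries, so they are no lower limit on a difference between the groups. In the exact two-sided permutation test on log2(CPM + 1), p was 0.429 for Mcpt8 and 0.143 for Ms4a2, where 4 against 4 libraries can give 0.0286 at the smallest. Prss34 had 7, 0, 10 and 19 counts in PM2.5 replicates 1 to 4, against 6, 0, 0 and 0 counts in air replicates 1 to 4 (exact permutation p = 0.257). Fcer1a had 9 counts over the PM2.5 and 20 over the air libraries (exact permutation p = 0.429). None passed in these tests, while the joint fit of all 18 libraries called Ms4a2 in spleen. The PM2.5 libraries highest for Mcpt8, Prss34 and Ms4a2 included replicate 4, the richest in mesothelium, neutrophil and promyelocyte markers, whose part was not tested.

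Related genes in spleen lay on both sides of 0 in log2 fold change, and none passed in edgeR. Of the 14 further eosinophil genes 9 were tested, with 8 higher and 1 lower and a median of log2 fold changes of 0.742. Those with the smallest p were Ccr3 (3.22, adjusted p = 0.124), Gata1 (3.15, 0.132), an erythroid and eosinophil transcription factor, and Adgre1 (0.74, 0.215). Gata1 had 61.8 and 29.7 CPM in the erythroid-rich PM2.5 replicates 2 and 4 and at most 11.9 CPM in the other spleens, and without those 2 its log2 fold change was 1.26, while that of Ccr3 was 2.79. Of the 26 basophil and mast cell genes 17 were tested, with 10 higher and 7 lower and a median of 0.179, led by Il1rl1 (3.45, adjusted p = 0.126), Kit (0.79, 0.127) and Itga2b (0.93, 0.171), an integrin gene shared with platelets. Il1rl1 had 12.5 and 5.65 CPM in the same 2 erythroid-rich libraries and 1.29 and 2.02 CPM in the other PM2.5 spleens, against at most 0.757 CPM in air, and without those 2 its log2 fold change was 1.77. Itga2b was 0.44 without the PM2.5 libraries richest in mesothelium markers. DESeq2 called Ccr3 (adjusted p = 0.00073), Gata1 (0.0247), Il1rl1 (0.00131), Kit (0.0124) and Itga2b (0.0468). Of the 27 genes of type 2 cytokines, receptors and targets 17 were tested, with 14 higher and 3 lower and a median of 0.385. Among the lower ones, Gata3 was at -0.89 in edgeR (adjusted p = 0.127) and at -0.87 in DESeq2, which called it (adjusted p = 0.0154). Without both air libraries with liver transcripts it was at -0.48 in edgeR. The 9 T cell markers summed to between 950 and 1180 CPM in spleen PM2.5 and between 1200 and 1710 CPM in spleen air libraries. Of these markers 8 were lower, with a median of log2 fold changes of -0.362, and none passed in edgeR. Their part in the value of Gata3 was not tested. Ccr3 had 2.17, 3.36, 3.60 and 6.72 CPM in spleen PM2.5 replicates 1 to 4, against 0.962, 0.528, 0 and 0.220 CPM in spleen air replicates 1 to 4. The 10 red pulp macrophage markers were all higher in spleen PM2.5, with a median of log2 fold changes of 1.0, and 12 of 12 erythroid genes were higher, with a median of 3.93. Their part in these values was not tested.

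**Figure D4:**
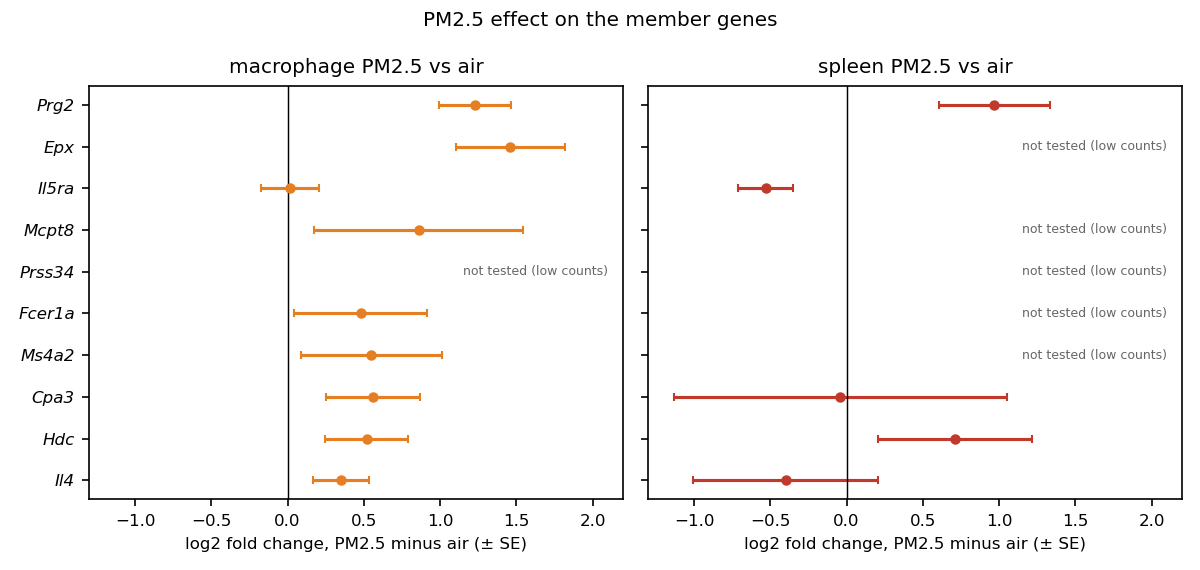
Log2 fold change, PM2.5 minus air, with its SE for each of the 10 genes in macrophage preparations (left) and in whole spleen (right), from edgeR. All 9 genes tested in macrophages lie above 0, with Epx at 1.46 and Prg2 at 1.23, and in spleen Il5ra lies at -0.53 and Prg2 at 0.97.

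The log2 fold change between PM2.5 and air in the macrophage preparations minus that in spleen was tested in a joint fit of all libraries, for the 5 genes tested in both. This difference was 0.25 for Prg2 (SE 0.41; edgeR adjusted p = 0.773; -0.30 with macrophage PM2.5 replicate 1 counted as air), 0.54 for Il5ra (SE 0.27; adjusted p = 0.261) and -0.21 for Hdc (SE 0.555; adjusted p = 0.872). For Cpa3 it was 0.60 (SE 1.04; adjusted p = 0.785) and for Il4 it was 0.73 (SE 0.544; adjusted p = 0.464). None passed in edgeR, which called 1.46% of the 17779 genes in this fit, nor in DESeq2, which called 5.87%, so no difference between the 2 materials was shown for these genes. Of related genes, Ccr3 (-3.41, adjusted p = 0.00877), Adgre1 (-1.24, adjusted p = 0.047) and the mast cell chymase gene Cma1 passed. Cma1 had 6 to 50 counts in the PM2.5 libraries of spleen and 0 in all its air libraries, so its fitted difference has no scale (adjusted p = 0.039).

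Between the isolated macrophage preparations and whole spleen, both from air-exposed mice, 5 of the 10 genes were higher and 1 lower in macrophages in edgeR, where 33.3% of genes were called higher and 33.3% lower. The material and the experiment cannot be told apart in this comparison. Prg2 averaged 18.6 ± 4.97 CPM in macrophage air (SD, n = 5) and 2.57 ± 1.21 CPM in whole spleen after air (SD, n = 4), 7.18-fold higher in the fit (log2 fold change 2.84, SE 0.314; edgeR adjusted p = 2.22e-07). Hdc averaged 5.56 ± 2.42 CPM in macrophage air and 1.96 ± 0.947 CPM in spleen air libraries (log2 fold change 1.52, SE 0.412; adjusted p = 0.00327). For Epx, 327 counts stood against 1, a ratio of 241 per scaled total with an exact 95% interval from 42.9 to 9540 for counting error (edgeR adjusted p = 2.48e-07). Mcpt8 was at least 12.0-fold higher (adjusted p = 0.00713) and Ms4a2 at least 30.9-fold higher (adjusted p = 8.88e-05), each against 0 counts in spleen air and a limit of 3 counts over the group. The counts in macrophage air were taken as they stand for these bounds, so their own counting error is not covered, nor is the spread between libraries.

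Il5ra was the one lower gene, at 11.1 ± 2.07 CPM in macrophage air (SD, n = 5) and 18.9 ± 3.68 CPM in whole spleen after air (SD, n = 4; log2 fold change -0.77, SE 0.19; edgeR adjusted p = 0.00151). All 8 B cell markers were also lower in the macrophage preparations and passed, with a median of -1.07. The remaining 4 did not pass, with log2 fold changes of 1.47 for Fcer1a (adjusted p = 0.134), 1.10 for Prss34 (0.424, or 0.0311 without spleen air replicate 1, the only spleen air library with counts of it), 0.50 for Cpa3 (0.571) and 0.35 for Il4 (0.436). With macrophage PM2.5 replicate 1 counted as air, the same 6 genes passed, with log2 fold changes of 3.27 for Prg2, 1.58 for Hdc and -0.83 for Il5ra. The median of all 10 was 1.49, also with Mcpt8 and Ms4a2 set to their bounds, beside 0.000536 over all genes.

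For Epx and for Mcpt8, the 5 genes with deviations from the group means most like their own were listed. For Epx over the 10 macrophage libraries they were Zfp773, Zik1, Lrig1, Gm8797 and Ear6, with Pearson's r of log2(CPM + 1) deviations from 0.944 to 0.866. For Mcpt8 they were Cdh1, Cyp11a1, Gm12258, Jrk and Grm6, from 0.947 to 0.924. Cyp11a1, a steroid-making enzyme gene also known from mast cells and basophils, had 1.04, 1.69, 4.22, 2.73 and 0.662 CPM in macrophage air replicates 1 to 5, with the same 2 high libraries as Ms4a2, Fcer1a and Hdc. These values are descriptions chosen as the highest of all tested genes, in libraries that also differ in depth and cell content. Lists chosen in this way can hardly share a gene, so they show no difference between Epx and Mcpt8. The high libraries of Cyp11a1 go with its choice by likeness to Mcpt8.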

How the data were processed

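Polyadenylated RNA of 8 whole spleens and 10 macrophage preparations was measured. The deposited values are counts of reads for each Ensembl identifier, whole numbers that were not normalized, and the submitters' processing notes name FastQC 0.10.1, HTSeq 0.10.0 and the builds mm10 and GRCm38. Which aligner, annotation release and strand setting were used is not given in the sources used here. All 18 columns matched a sample.

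Counts were tested in R 4.3.3 with edgeR 4.0.16 (TMM scaling, quasi-likelihood test, two-sided, Benjamini-Hochberg over all genes tested, threshold 0.05). The filter was filterByExpr (count of at least 10, total of at least 15). Each experiment was fitted alone, and a joint fit gave the difference of the PM2.5 effects and the comparison of preparations. Log2 fold changes are those of the fit, and the SE was derived from its F statistic. Genes under the filter had an exact permutation test on log2(CPM + 1), with scipy 1.17.1. Depth is the total count per library, and a count of 0 allows up to 3 counts. Level per length used the union of exons in GENCODE M21. Only microRNA genes with no counts overlap the 10 genes.

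The 10 genes and all lists were chosen with earlier results of these data known. All 10 were named, with the called genes of each related list (up to 6 by p), or otherwise its 3 genes of smallest p with a mean of at least 1 CPM, and the 5 genes most like Epx, Mcpt8 and Cpa3 (those of Cpa3 are not reported here). Ear1, Ear2, Ear6, Siglecf, Prg3 and Ccr3 in macrophages were named after their values were seen.

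Alternatives were DESeq2 1.42.0, limma-voom (limma 3.58.1), other scalings and filters, the joint fit, a replicate block, the omission of each library, the omission of spleen libraries with liver or most erythroid transcripts, and macrophage PM2.5 replicate 1 counted as air. Added after seeing the data were DESeq2 with that library as air and without PM2.5 replicate 3, the Prss34 permutation test with that library as air, and a spleen fit without both PM2.5 libraries richest in mesothelium markers (replicates 3 and 4). On simulated counts, the edgeR step found 38.8% of the genes given a 2-fold change and 75.8% of those given a 4-fold change in the spleen design. In the macrophage design it found 70.1% and 99%. Of the calls, 8.33% were false in the spleen design and 4.09% in the macrophage design. The counts were drawn gene by gene at the fitted spread, without libraries that differ in cell content, so these shares need not hold for the data. No 2 libraries of a group were copies of each other by a chi-square test of their counts, with at least 11.2 per degree of freedom.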

Additional observations from a re-analysis of the deposited data

Results flagged for a closer look

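Of 37 sets of libraries examined, 1 for each of the 10 genes in each group with any count, 3 held a library that an outlier rule flagged. For normally spread values chance flags about 5% of sets, a share that does not hold for sets of mostly zeros. Epx in macrophage PM2.5 replicate 3 was at 17.6 CPM, from 542 counts, with the other 4 libraries of the group between 5.74 and 7.55 CPM. Epx in spleen air replicate 2 was at 0.048 CPM, from 1 count, with no count in the other 3 libraries. Prss34 in spleen air replicate 1 was at 0.361 CPM, from 6 counts, with no count in the other 3. A lone library with counts among libraries with none is flagged whatever its value, so these last 2 flags do not show that a library stood apart.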

How the results depend on the processing

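Of the 10 genes, none was called by edgeR in either PM2.5 comparison when any single library was left out. In the macrophage comparison Prg2 ranged from 1.07 to 1.38 and Epx from 1.05 to 1.63 in log2 fold change over these omissions. DESeq2 called 2 of the 10 in macrophages, Prg2 and Epx, also without PM2.5 replicate 3, and none with replicate 1 counted as air. The joint fit called 1 in spleen and DESeq2 called 1 in the difference between the materials, each time Ms4a2, which has no count in spleen air. Counts of called genes over all genes tested also moved with the processing. In spleen, 2 genes were called, against 1 with DESeq2's size factors or limma-voom, 12 with a filter of 1 CPM, 461 with no filter, 830 in DESeq2, 1050 in the joint fit, and 0 without both liver-rich, both erythroid-rich or both mesothelium-rich libraries, with a range from 0 to 219 when 1 library was left out. In macrophages, none was called, against 1 with no filter, 175 in DESeq2, 106 in DESeq2 without PM2.5 replicate 3 and 25 in DESeq2 with replicate 1 as air, with a range from 0 to 17 when 1 library was left out. In the difference between the materials, 259 were called, against 1044 in DESeq2, 3 in limma-voom and 87 with replicate 1 as air, with a range from 68 to 1317. The cause was not tested.

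The sign of some log2 values turned. Cpa3 in spleen was 0.0123 in limma-voom and 0.44 without both erythroid-rich and 0.15 without both mesothelium-rich libraries, and ranged from -0.46 to 0.69 over single omissions. Il5ra in macrophages was -0.0233 in limma-voom and ranged from -0.16 to 0.11, Ear2 there from -0.23 to 0.0151, and Mcpt4 was -0.16 in edgeR and -0.18 in DESeq2 with replicate 1 as air. The difference for Prg2 was -0.30 with replicate 1 as air. Over single omissions the differences ranged from -0.11 to 0.44 for Prg2, -0.48 to 0.18 for Hdc and -0.12 to 1.06 for Cpa3, and Il4 between the preparations ranged from -0.0235 to 0.67.

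The deviations of libraries with equal replicate numbers had correlations between -0.137 and 0.0589 in spleen and between -0.143 and 0.284 in macrophages. Macrophage replicates 4 and 5 were the highest, at 0.284 and 0.254, and whether those libraries are paired was not tested. With the replicate number as a block, 3 genes were called in spleen, 0 in macrophages and 91 in the difference between the materials, Cpa3 in spleen was 0.13 and Il5ra in macrophages -0.00186. In macrophages the block lowered the SE of Hdc from 0.272 to 0.154 and that of Ms4a2 from 0.461 to 0.314. It raised the SE of Prg2 from 0.237 to 0.279 and that of Epx from 0.357 to 0.421. The block could not be fitted for the comparison of preparations. Counts under about 10 per library limit what Mcpt8, Prss34, Fcer1a and Ms4a2 can show in spleen.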
